A study of Mus musculus with 6 samples.

Results

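The genes described here are 40 mouse mitosis genes, taken by symbol from the gene tables of 6 single-cell libraries that each list 55335 genes. All 40 symbols were found in every library, and all 40 averaged at least 10 CPM (UMIs of the gene per 1000000 UMIs of the library; a UMI, or unique molecular identifier, stands for 1 captured RNA molecule). The study followed intestinal organoids, which are small epithelial structures grown from gut cells, as they were rebuilt from single cells. Organoids came from wild type C57BL/6 mice aged 8 weeks. The series' design speaks of 2 mice in duplicate, and which library came from which mouse was not given in the sources used here.

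The 6 libraries formed 5 groups. At day 4 (96 h) there was 1 library each of organoids given DMSO (the vehicle), 5 µM of an RXR antagonist (RXRi), 10 µM all-trans retinoic acid (atRA), or grown in medium free of vitamin A. At day 1 (24 h) there were 2 libraries of DMSO-treated organoids. RXR is a nuclear receptor that pairs with the retinoic acid receptor and with several other receptors. The derivative of vitamin A called atRA is a ligand of the retinoic acid receptor. The compounds were given at day 0 and again at day 3. Until day 3 every culture also held Wnt3a-conditioned medium, a ROCK inhibitor (Y-27632) and a GSK3B inhibitor (CHIR99021), both of which favour survival and growth of crypt-type cells. From day 3 on, the cultures were in ENR medium, which holds EGF, Noggin and R-spondin. Whether the vitamin A-free cultures received DMSO was not stated. The day-4 and day-1 libraries were therefore taken under different media.

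Mitosis is the step of the cell cycle in which duplicated chromosomes are pulled apart and the cell divides. Cyclins A and B with the kinase CDK1 start it, the spindle and the kinetochores move the chromosomes, a checkpoint holds the cell until each chromosome is attached, and the anaphase-promoting complex then destroys the cyclins. Most of these genes are transcribed late in the cycle, in G2 and M phase, so in the gut their RNA is found in the dividing cells of the crypt and not in mature enterocytes.

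After removal of likely doublets, 3468 to 5327 cells per library were used, with 47258161 to 62567817 UMIs per library and a median of 9968 to 13365.5 UMIs per cell. Pairs of libraries shared 2 to 17 cell barcodes. Summed over the 6 epithelial markers (Epcam, Cdh1, Krt8, Krt18, Vil1 and Cdx2, with Krt8 the most abundant), the libraries held 4500 to 22047 CPM. The immune list reached at most 11.5 CPM, the endothelial list 1.47 CPM and the fibroblast and smooth muscle list 0.224 CPM. Both red blood cell markers were at 0 in every library. The sequenced cells were thus epithelial by their markers, as labelled.

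The promoters of these genes are shown here because they share sequence features that the list did not use. RefSeq windows of 300 bases (250 before to 50 after the annotated start, build GRCm38.p6) were found for 35 of the 40 genes, in 37 windows. Ccna2, Pbk, Aurkb and Tpx2 had no matching entry. Kif20a was not looked up, because the windows of its chromosome were left out before matching. The CHR element, searched as TTTGAA or TTCGAA on either strand, is a short motif known from genes expressed in G2 and M phase. The CCAAT box, searched as CCAAT on either strand, is bound by the factor NF-Y. A CHR lay in 31 of the 37 windows (83.8%), against 19.2% of the 32851 RefSeq windows of that length that were kept. A CCAAT box lay in 30 (81.1%) against 37.4%. Both lay in 28 (75.7%) against 7.52%, and a CHR within 50 bases of the start also in 28 (75.7%) against 5.31%. Of 36 windows of DNA replication genes, which are transcribed earlier in the cycle, 6 (16.7%) held a CHR and 20 (55.6%) a CCAAT box. These are matches of letters, and binding was not measured.

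The 150 bases before the RefSeq start are printed for 3 genes, to show how the motifs lie in genes of different roles that recur in the results, 5′ to 3′ on the strand of the gene. Capitals mark a CHR or a CCAAT box on either strand.
Cdc20, chr4:118437344-118437493, minus strand: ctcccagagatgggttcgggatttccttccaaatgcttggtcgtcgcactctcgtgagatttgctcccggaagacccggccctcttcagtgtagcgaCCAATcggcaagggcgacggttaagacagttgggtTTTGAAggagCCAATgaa
Cdk1, chr10:69352913-69353062, minus strand: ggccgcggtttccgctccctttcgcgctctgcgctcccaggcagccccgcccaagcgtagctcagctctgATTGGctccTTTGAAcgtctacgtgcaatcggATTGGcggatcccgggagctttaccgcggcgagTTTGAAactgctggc
Ube2c, chr2:164769779-164769928, plus strand: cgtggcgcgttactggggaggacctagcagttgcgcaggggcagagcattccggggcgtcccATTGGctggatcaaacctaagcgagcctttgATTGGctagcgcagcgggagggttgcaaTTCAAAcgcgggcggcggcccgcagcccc
In Cdc20 the CHR begins at -18 from the start, in Ube2c at -29, and Cdk1 has CHRs at -71 and -15. In each of them at least 1 CCAAT box lies upstream of the CHR nearest to the start. Plk1 and Aurka carry a CHR after the start, at 30 and 32. Ccnb1 has CCAAT boxes at -99 and -67 and none of the CHR letters in its window.

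Levels over whole libraries were highest at day 1 and lowest in the 2 compound-treated libraries of day 4. Summed over the 40 genes, the level was 6191 and 5723 CPM in the day-1 libraries, 2765 CPM in vitamin A-free medium, 2068 CPM in the day-4 vehicle, 1069 CPM with the antagonist and 767 CPM with retinoic acid. In 40 of 40 genes both day-1 libraries lay above all 4 day-4 libraries and the vitamin A-free library lay above the vehicle. The retinoic acid library lay below the vehicle in 40 of 40 and the antagonist library in 39, the exception being Kif23. The antagonist and retinoic acid libraries were neighbours in this order: the antagonist was the higher in 32 genes and the lower in 8, and their 95% Poisson intervals, which cover counting error only, overlapped in 15. In libraries of all cells, fewer mitotic cells and less mitotic RNA per cell cannot be told apart, and levels within single cells follow further on.

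**Figure D1:**
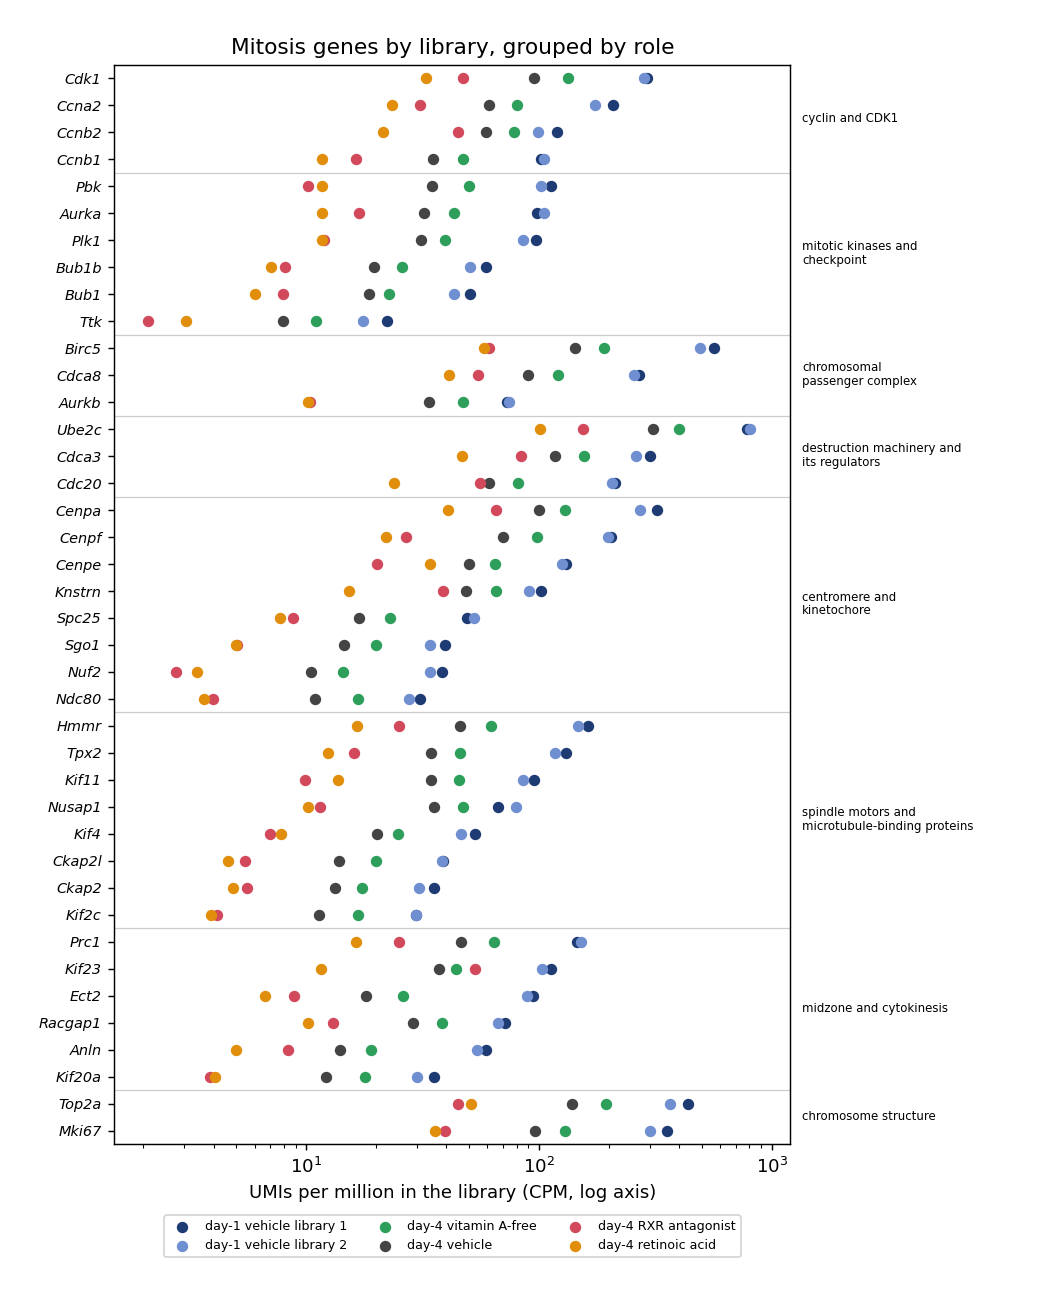
Level of each of the 40 mitosis genes in each library, in CPM (log axis), with 1 point per library and the genes grouped by role. Both day-1 libraries lie to the right of all day-4 libraries for every gene, and Kif23 is the single gene in which the antagonist lies to the right of the day-4 vehicle.

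Cyclins and CDK1 come first in the order of mitosis. Cdk1, the kinase that drives entry, was at 94.8 CPM in the vehicle, 47.2 with the antagonist, 32.6 with retinoic acid, 133 in vitamin A-free medium, and 290 and 283 at day 1. Ccna2, which encodes the cyclin A2 of S and G2 phase, was at 60.9, 30.7, 23.4, 80.2, 208 and 173 CPM in the same order of libraries, which is kept in the sentences below. Ccnb1, the main mitotic cyclin, was at 34.9, 16.4, 11.7, 46.9, 102 and 105 CPM. The 3 genes thus stood in the same order of libraries, apart from the order of the day-1 pair. Ccnb2, the second B-type cyclin, was at 59.1, 45.0, 21.3, 78.2, 119 and 99.2 CPM, so that its antagonist library lay closer to the vehicle.

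Among mitotic kinases, Plk1, which acts at centrosomes and kinetochores, was at 31.2, 11.96, 11.7, 39.5, 97.1 and 85.6 CPM. Aurka, the kinase of spindle poles, was at 31.9, 16.8, 11.7, 43.2, 98.4 and 105 CPM. In both genes the retinoic acid library was the lowest, though for Plk1 its counting interval overlapped that of the antagonist library. Pbk, a kinase active in mitosis, was at 34.8, 10.1, 11.7, 50.003, 113 and 102 CPM. Of the checkpoint kinases, Bub1 was at 18.7, 7.98, 6.03, 22.6, 50.6 and 43.2 CPM. Ttk, which starts checkpoint signalling, was at 7.91, 2.09, 3.05, 10.97, 22.1 and 17.5 CPM, and its 99 UMIs in the antagonist library were the fewest of any of the 40 genes in a library. In Pbk and Ttk the antagonist library lay below the retinoic acid library, with overlapping counting intervals for Pbk.

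The chromosomal passenger complex corrects faulty spindle attachments and helps the cell divide. Its kinase gene Aurkb was at 33.6, 10.3, 10.1, 47.1, 72.9 and 74.2 CPM. Birc5, which encodes its subunit survivin, was at 143, 61.1, 58.0, 190, 563 and 493 CPM. Cdca8, which encodes the subunit borealin, was at 89.2, 54.8, 41.0, 120, 267 and 255 CPM. For Aurkb and Birc5 the counting intervals of the antagonist and retinoic acid libraries overlapped.

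In the destruction machinery, Ube2c encodes the ubiquitin-conjugating enzyme of the anaphase-promoting complex and gave the most UMIs of the 40 genes in every library, at 310, 154, 101, 398, 785 and 808 CPM. Cdc20, which activates that complex once the checkpoint is satisfied, was at 60.9, 56.0, 23.8, 80.9, 212 and 205 CPM. The antagonist library thus held nearly as much Cdc20 as the vehicle, while it held less Ube2c. The gene Elovl1, on the opposite strand, overlaps the end of Cdc20 (chr4:118432901-118437352, GENCODE vM21, GRCm38), and its level was 105 CPM in the vehicle and 279 CPM with the antagonist. Whether reads were counted by strand was not given in the sources used here, and the part of Elovl1 in the Cdc20 value was not tested.

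At centromeres and kinetochores, Cenpa, the histone variant that marks the centromere, was at 100, 65.3, 40.5, 129, 322 and 271 CPM. Cenpf, a large kinetochore protein of G2 and M phase, was at 69.9, 26.8, 21.9, 98.1, 205 and 197 CPM. Cenpe, a kinetochore motor, was at 50.04, 20.1, 34.0, 64.4, 130 and 125 CPM, and was the gene in which the retinoic acid library came closest to the vehicle. Knstrn, a spindle and kinetochore protein needed for anaphase, was at 48.4, 38.6, 15.2, 65.1, 102 and 90.5 CPM. Ndc80, Nuf2 and Spc25 encode subunits of the complex that grips the microtubule. Ndc80 was at 10.9, 3.98, 3.63, 16.7, 30.9 and 27.5 CPM and Nuf2 at 10.5, 2.75, 3.40, 14.4, 38.4 and 34.1 CPM. Spc25 was at 16.9, 8.80, 7.68, 22.9, 48.8 and 52.5 CPM. Of these 3, only Nuf2 was lower with the antagonist than with retinoic acid, and in all 3 the counting intervals of these libraries overlapped.

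Spindle motors and microtubule-binding proteins follow. Kif11, the motor that pushes the spindle poles apart, was at 34.5, 9.84, 13.7, 45.4, 94.7 and 85.4 CPM. Kif2c, a motor that shortens microtubules, was at 11.4, 4.15, 3.90, 16.7, 29.6 and 29.5 CPM. Kif4, a motor of chromosomes and the spindle midzone, was at 20.1, 7.004, 7.78, 24.9, 53.2 and 46.3 CPM. Only the order of the antagonist and retinoic acid libraries varied among these motors, and their counting intervals overlapped for Kif2c and Kif4. Nusap1, which bundles spindle microtubules, was at 35.4, 11.5, 10.2, 47.0, 66.3 and 79.5 CPM, with the day-1 libraries closer to the day-4 ones than for the motors.

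Midzone and cytokinesis genes act last. Ect2, which switches on the GTPase RhoA for the contractile ring, was at 18.05, 8.82, 6.62, 26.1, 94.1 and 88.9 CPM. Anln, which encodes anillin of the same ring, was at 13.9, 8.36, 5.00, 19.0, 59.4 and 54.1 CPM. Kif20a, a midzone motor, was at 12.2, 3.85, 4.06, 17.9, 35.4 and 29.96 CPM. These 3 genes were low in both compound-treated libraries. Kif23, the motor of the centralspindlin complex, was at 37.0, 53.3, 11.6, 43.8, 112 and 103 CPM, and so was highest of the day-4 libraries with the antagonist.

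Chromosome structure is represented by Mki67 and Top2a. Mki67, which encodes the proliferation marker Ki-67 that coats mitotic chromosomes, was at 95.7, 39.4, 35.7, 129, 353 and 299 CPM. Top2a, the topoisomerase that untangles sister chromatids, was at 139, 44.9, 50.9, 193, 436 and 366 CPM. The remaining 9 genes were the checkpoint gene Bub1b, Cdca3, Sgo1, which protects cohesion at centromeres, the spindle genes Tpx2, Hmmr, Ckap2 and Ckap2l, and Prc1 and Racgap1 of the midzone. They ran from 4.61 CPM (Ckap2l with retinoic acid) to 300.1 CPM (Cdca3 in the first day-1 library). In each of them the 2 day-1 libraries were highest, followed by vitamin A-free medium, vehicle, antagonist and retinoic acid. The counting intervals of antagonist and retinoic acid overlapped for Bub1b, Ckap2, Ckap2l and Sgo1.

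The antagonist was compared with the day-4 vehicle, to which the other day-4 libraries were also compared, so these comparisons share that library. With 1 library per treatment no test of the treatments was run. Genes were counted when at least 1.5-fold apart on the log2(CPM + 1) scale, a scale that understates changes of low genes, among 12437 genes that averaged at least 1 CPM over the 6 libraries. With the antagonist 35 of the 40 mitosis genes were lower and 0 higher, against 19.3% of all genes lower and 14.8% higher. The median log2 ratio of the 40 genes was -1.13, and that of all genes -0.04. The lowest were Kif11 (log2 ratio -1.71, 3.50-fold lower by CPM, 95% counting interval 3.16 to 3.89), Pbk (-1.69, 3.44-fold) and Nuf2 (-1.62, 3.82-fold). By role, 8 of 8 spindle motors and microtubule-binding proteins, 6 of 6 kinases and checkpoint genes and 7 of 8 kinetochore genes were lower, but 1 of 3 in the destruction machinery.

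The genes that stood apart with the antagonist were Kif23, Cdc20, Knstrn, Ccnb2 and Cdca3, the 5 that were not 1.5-fold lower. Kif23 was 1.44 times the vehicle (95% counting interval 1.35 to 1.53; log2 ratio 0.51). Cdc20 was 0.920 times (log2 ratio -0.12) and Knstrn 0.797 times (-0.32). Ccnb2 and Cdca3, which encodes a trigger of mitotic entry, had log2 ratios of -0.38 and -0.48. The 2 day-1 libraries, the sole replicate pair, differed by at most 0.32 (log2, Ttk) for any of the 40 genes and by a median of -0.14, with 0 genes 1.5-fold apart in either direction against 0.145% of all genes lower and 3.73% higher. With the antagonist 38 of 40 genes differed from the vehicle by more than 0.32, all but Cdc20 and Knstrn, against 55.7% of all genes.

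Kif23 lies at chr9:61915905-61946774 on the minus strand. Its neighbour Paqr5, on the same strand with 6707 bases between the genes, was at 6.77 CPM in the vehicle and 141 CPM with the antagonist, and at 1.53 to 7.70 CPM in the other 4 libraries. Paqr5 lies upstream of Kif23, at chr9:61953481-62026856. Its part in the Kif23 value was not tested.

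Retinoic acid gave lower levels of nearly the whole list. Of the 40 genes 39 were lower and 0 higher, against 28.2% of all genes lower and 5.60% higher, with a median log2 ratio of -1.38. The median of all genes was itself at -0.33 in this comparison, where enterocyte markers took 117666 CPM against 48344 CPM in the vehicle. Relative to that median, the 40 genes lay at -1.05. With edgeR's TMM factors the count was again 39 and the median -1.03, while the split of all genes moved from 3502 lower and 697 higher to 1483 lower and 1658 higher. With DESeq2's size factors that split was 1331 lower and 1850 higher, with 39 of the 40 again lower.

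Ratios to the vehicle spread less with retinoic acid than with the antagonist. They ran from -1.70 (Nusap1, 3.46-fold lower by CPM, 95% counting interval 3.15 to 3.80), -1.64 (Aurkb) and -1.63 (Cenpf) to -1.10 (Cdca8), -1.04 (Spc25) and -0.55 (Cenpe). Cenpe, at 1.47-fold lower by CPM (95% counting interval 1.39 to 1.56), was the sole gene not counted. Cdc20, Knstrn and Kif23, which stood apart with the antagonist, were at -1.32, -1.61 and -1.59 here. Cenpe lies at chr3:135212537-135273611 on the plus strand. Bdh2, which begins 7610 bases after the end of Cenpe on the same strand, was at 1.14 CPM in the vehicle and 4.33 CPM with retinoic acid. With the antagonist, where Cenpe was 2.49-fold lower by CPM, Bdh2 was at 3.47 CPM. It was at 0.118 to 1.06 CPM in the remaining libraries. The part of Bdh2 in the Cenpe value was not tested.

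Vitamin A-free medium gave slightly higher levels of every gene. All 40 lay above the vehicle, with a median log2 ratio of 0.42 against 0.11 for all genes. None was 1.5-fold apart on the log2(CPM + 1) scale (0 lower and 0 higher, against 1.63% of all genes lower and 3.16% higher). The highest were Ndc80 (0.57, 1.53 times the vehicle by CPM), Kif20a (0.52) and Kif2c (0.52), and the lowest Kif23 (0.24), Bub1 (0.26) and Kif4 (0.29). The difference exceeded the largest one within the day-1 pair, 0.32, in 37 of 40 genes, against 17.0% of all genes higher by more than that. With TMM factors the 40 genes stayed above the vehicle, at 0.10 to 0.43, but 6 exceeded the largest difference of that pair, then 0.35, against 6.47% of all genes. With each cell given equal weight it was 17 of 40, against 11.6%. The split of all genes also turned, from 203 lower and 393 higher to 343 lower and 192 higher with TMM factors and to 359 lower and 177 higher with DESeq2's size factors.

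**Figure D2:**
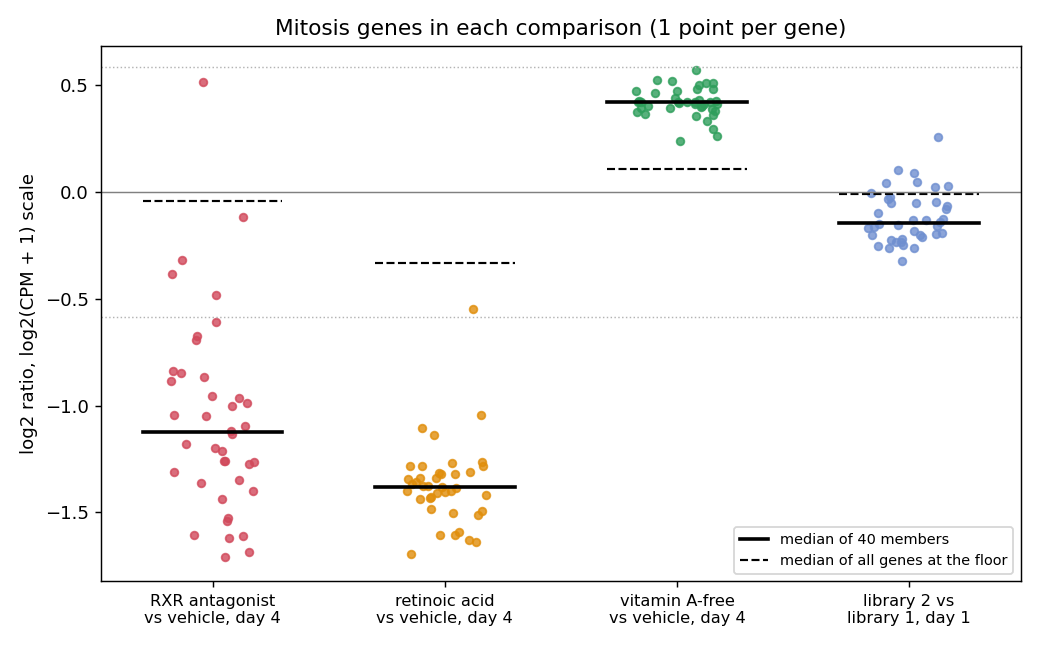
Log2 ratio of each of the 40 mitosis genes on the log2(CPM + 1) scale in 4 comparisons, 1 point per gene, with the median of the 40 genes (solid line) and of all 12437 genes (dashed line); dotted lines mark 1.5-fold. The antagonist points spread from -1.71 to 0.51, the retinoic acid points lie below -0.54, and the vitamin A-free points all lie above 0.

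Day-4 vehicle organoids were compared with day-1 vehicle organoids by edgeR's quasi-likelihood test over 17592 genes. The 2 day-1 libraries gave the spread, and the lone day-4 library was assumed to vary like them; nothing says that the day-1 pair came from separate mice, so p-values may measure technical spread. All 40 mitosis genes fell from day 1 to day 4, against 16.9% of all genes lower and 17.3% higher, with Benjamini-Hochberg adjusted p from 0.00119 to 0.0286 over all genes in edgeR. The median log2 fold change was -1.35, and that of all genes -0.03. Ect2 fell most, from 91.5 ± 3.68 CPM at day 1 (SD, n = 2) to 18.05 CPM, a log2 fold change of -2.16 (SE 0.17; edgeR adjusted p = 0.00119). Anln and Birc5 followed, with log2 fold changes of -1.85 (SE 0.17) and -1.71 (SE 0.18).

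The smallest falls were those of Ccnb2 (log2 fold change -0.71, SE 0.18, edgeR adjusted p = 0.0286), Knstrn (-0.81, SE 0.16) and Nusap1 (-0.86, SE 0.18). Mki67 fell from 326 ± 37.7 CPM (SD, n = 2) to 95.7 CPM and Top2a from 401 ± 49.1 to 139 CPM. Against each day-1 library alone, 40 of 40 genes were at least 1.5-fold lower at day 4 on the log2(CPM + 1) scale, against 27.8% and 25.9% of all genes. Culture medium changed between the days, so time and medium cannot be told apart.

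Other genes of the pathway were read from lists beside the 40. Over all genes, 19.3% were 1.5-fold lower and 14.8% higher with the antagonist. The shares were 28.2% and 5.60% with retinoic acid, and 1.63% and 3.16% in vitamin A-free medium. Of 55 further mitosis genes, 45 were at least 1.5-fold lower and 1 higher with the antagonist (median log2 ratio -0.92). The lowest were Kif15, a spindle motor (5.37 against 27.0 CPM), and Fbxo5, an inhibitor of the anaphase-promoting complex (4.68 against 20.8 CPM). The gene that was higher was Zwint, a kinetochore protein, at 138 against 62.9 CPM, and next came Pttg1, the securin that guards sister chromatids, at 20.0 against 19.0 CPM. With retinoic acid 52 of 55 were lower and 0 higher (median -1.16), from Cit, a kinase of cytokinesis (3.50 against 12.3 CPM), and Cdc25b, a phosphatase that activates CDK1 (4.08 against 13.2 CPM), to Zwint (47.5 against 62.9 CPM) and Pttg1 (16.2 against 19.0 CPM). In vitamin A-free medium 0 were lower and 4 higher (median 0.39), led by Pimreg (4.98 against 2.42 CPM) and Depdc1a (5.16 against 2.90 CPM), with Pttg1 and Gtse1 the lowest at log2 ratios of 0.07 and 0.18.

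DNA replication genes, which act in S phase, were also lower with both compounds. Of 40, 37 were lower and 0 higher with the antagonist (median log2 ratio -1.38) and with retinoic acid (-1.04), against 19.3% and 28.2% of all genes lower. In vitamin A-free medium 0 were lower and 1 higher (0.43), near the shares of all genes (1.63% lower and 3.16% higher). With the antagonist Mcm10, which helps to start replication, was among the lowest (2.14 against 14.0 CPM), and the highest were Rfc2 (-0.36) and Slbp (-0.53). With retinoic acid Pcna, the sliding clamp, was highest at 109 against 124 CPM (-0.18), while Uhrf1 and Mcm6 were the lowest, both at -1.31. In vitamin A-free medium Ccne1, the cyclin E1 of S phase entry, was highest (18.5 against 11.2 CPM), then Clspn (0.55), with Pcna (0.14) and Gmnn (0.14) the lowest.

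Cell cycle brakes were read from a list as well. Cdkn1a, the inhibitor p21, was at 379 CPM in the vehicle, 307 with the antagonist, 190 with retinoic acid, 259 in vitamin A-free medium, and 152 and 230 at day 1. Of 12 brakes above 1 CPM, 2 were lower and 2 higher with the antagonist, near the shares of all genes (19.3% lower and 14.8% higher). Lower were Btg2, an antiproliferative factor (129 against 266 CPM), and Cdkn1c (5.31 against 10.4 CPM). Higher were Ccng2 (22.1 against 11.7 CPM) and Ccng1 (67.5 against 42.1 CPM). With retinoic acid 6 were lower and 0 higher, against 28.2% of all genes lower and 5.60% higher. Cdkn2d (-1.58) and Btg2 (-1.33) were the lowest there and Ccng1 (0.05) and Rbl2 (-0.11) the highest. In vitamin A-free medium 1 was lower and 1 higher, against 1.63% of all genes lower and 3.16% higher. They were Cdkn2b, the inhibitor p15 (75.7 against 158 CPM), and Cdkn1c (17.6 against 10.4 CPM), with Cdkn1a at -0.55 and Btg2 at 0.34.

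From day 1 to day 4, edgeR called 16.9% of all genes lower and 17.3% higher. It called 52 of the 55 further mitosis genes and 37 of 40 DNA replication genes lower. Pimreg alone of the former rose (2.42 against 1.31 and 0.944 CPM, log2 fold change 1.28, SE 0.32, edgeR adjusted p = 0.0264), which DESeq2 did not call (adjusted p = 0.129). Of 13 brakes, 7 rose and 2 fell, in edgeR, and the 2 that fell were near the share of all genes. Cdkn2b rose most (log2 fold change 3.36, SE 0.37), followed by Btg2 (2.62, SE 0.32), and Cdkn1a rose by 1.17 (SE 0.25, edgeR adjusted p = 0.0161). Ccng1 fell by 1.53 (SE 0.16) and Cdkn2c by 0.62 (SE 0.16). With no filter on low counts 28 of the 40 replication genes were called lower, against 1839 of all 28578 genes tested.

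Single cells were scored for the 40 genes after each cell was thinned to 5000 UMIs, so that depth did not set the score. The score is the mean log-normalised level of the list minus that of control genes of similar level, and a cell was called positive above 0. Cells under 5000 UMIs, 182 to 603 per library, were left out. Positive cells were 743 of 4252 in the vehicle (17.5%, 95% exact binomial interval 16.3 to 18.6%) and 258 of 3240 with the antagonist (7.96%, 7.05 to 8.95%). They were 364 of 4848 with retinoic acid (7.51%, 6.78 to 8.29%) and 1025 of 4584 in vitamin A-free medium (22.4%, 21.2 to 23.6%). At day 1 they were 3882 of 4817 (80.6%, 79.4 to 81.7%) and 2910 of 4476 (65.0%, 63.6 to 66.4%). The intervals of the antagonist and retinoic acid libraries overlapped, and no others did. They cover counting error within a library only. Those of the day-1 pair, the sole replicates, also lay apart, so separate intervals give no test of the treatments.

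A positive score marks a range of one scale and not a cell type. Between 1.73% and 9.45% of cells per library lay within 0.05 of the threshold, the fewest with the antagonist and the most in the first day-1 library. In cells rich in enterocyte genes (at least 2% of UMIs from a list of 14, led by Fabp1), which should lack mitosis RNA, 20 of 2622 were positive in the vehicle (0.763%), 74 of 4313 with retinoic acid (1.72%) and 32 of 2129 in vitamin A-free medium (1.503%). With the antagonist 0 of 264 were positive, which allows a share of up to 1.14% by a limit of 3 counts (the exact binomial interval ends at 1.39%). At day 1, however, 230 of 512 (44.9%) and 322 of 908 (35.5%) of such cells were positive. Among barcodes removed as likely doublets, 9.42% to 34.6% were positive at day 4, above the share in kept cells in each library.

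**Figure D3:**
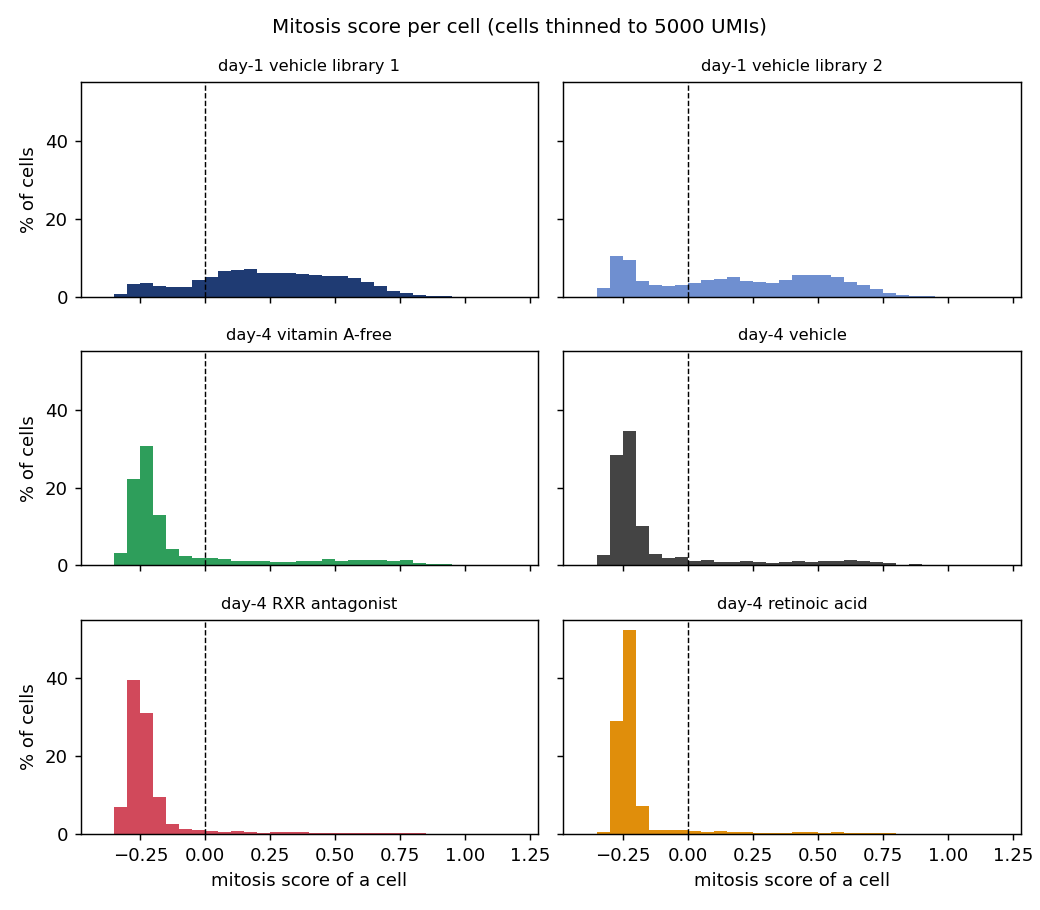
Histogram of the mitosis score over cells in each library, in % of cells per bin of 0.05, with a dashed line at the threshold of 0. Most day-4 cells form a peak between -0.30 and -0.20 with a long tail above 0, while most day-1 cells lie above 0.

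Share and level were then compared with the vehicle. The share of positive cells was 0.456 times that of the vehicle with the antagonist and 0.430 times with retinoic acid, while the mean number of mitosis UMIs per positive cell was 0.992 and 0.887 times. In vitamin A-free medium the ratios were 1.28 for the share and 1.02 for the level. At day 1 they were 4.61 and 3.72 for the share and 0.864 and 0.932 for the level. Medians per positive cell, of 5000 UMIs, were 41 in the vehicle, 34 with the antagonist, 34 with retinoic acid, 41 in vitamin A-free medium, and 33 and 39 at day 1. Since the score uses the 40 genes, the threshold itself limits how far their level in positive cells can differ. These ratios are therefore a description, and do not tell fewer mitotic cells from less mitotic RNA per cell.

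The list was also split, so that the genes read were not those that chose the cells, although the genes of the list vary together. When cells were chosen by the 20 genes at odd places in the list, the 20 at even places summed to 0.959 times the vehicle with the antagonist, 0.821 with retinoic acid and 1.01 in vitamin A-free medium. At day 1 they summed to 0.798 and 0.899 times. Chosen by the even places and read in the odd ones, a check added after the data were seen, the ratios were 1.06, 0.856, 1.05, 0.893 and 0.967. The level in positive cells was therefore lowest with retinoic acid among the day-4 libraries either way.

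**Figure D4:**
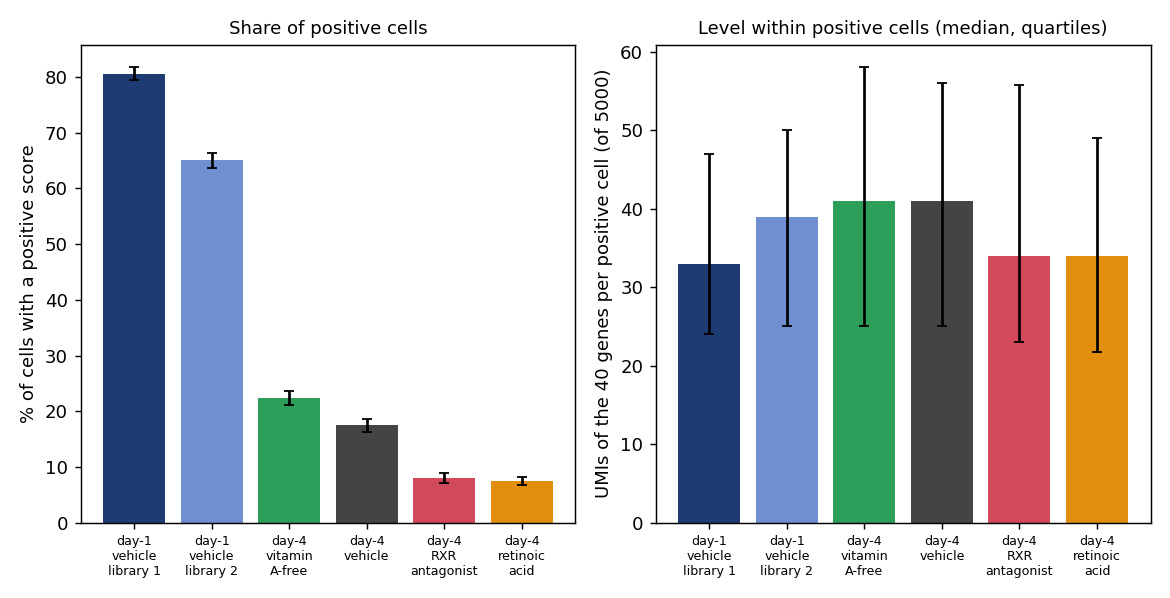
Left, % of scored cells with a positive mitosis score in each library, with 95% exact binomial intervals that cover counting error. Right, UMIs of the 40 genes per positive cell of 5000 UMIs, as median with quartiles. The share runs from 7.51% to 80.6%, while the medians lie between 33 and 41.

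Cells below the threshold also differed. Their mean number of mitosis UMIs was 0.819 times the vehicle with the antagonist, 0.412 times with retinoic acid and 1.32 times in vitamin A-free medium, from medians of 1, 1, 0 and 2 UMIs in the vehicle, antagonist, retinoic acid and vitamin A-free libraries. Positive cells held 67.9% of all mitosis UMIs with the antagonist and 77.9 to 81.9% in the other day-4 libraries. The median CPM ratio of the 40 genes below the threshold was 0.563 with the antagonist, so the ratio of all mitosis UMIs lay above that of the median gene. Kif23, the gene not lower with the antagonist over all cells, stood apart there too. In cells below the threshold it was at 41.4 CPM with the antagonist and 10.9 CPM in the vehicle, and it was the sole gene of 40 at least 1.5-fold higher there by CPM with the antagonist, where 23 were lower, against 20.4% of all genes higher and 20.3% lower. A Kif23 UMI was found in 20.0% of antagonist cells and in 17.0% of those rich in enterocyte genes, both at 5000 UMIs, against 12.8% and 3.85% in the vehicle. Unthinned, the shares of all cells were 40.9% and 20.6%.

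Cenpe stood apart below the threshold with retinoic acid. Below the threshold it was at 19.6 CPM with retinoic acid and 6.87 CPM in the vehicle, while 34 of the 40 genes were at least 1.5-fold lower there by CPM and Cenpe alone was higher, against 34.8% of all genes lower and 6.44% higher. A Cenpe UMI was found in 12.1% of retinoic acid cells and 9.34% of those rich in enterocyte genes, against 12.2% and 1.87% in the vehicle. The shares of retinoic acid cells and vehicle cells were thus nearly equal at 5000 UMIs, and unthinned they were 22.7% and 19.1%. Ube2c was also frequent outside positive cells: in the vehicle 41.4% of all cells, 28.5% of those rich in enterocyte genes and 91.5% of positive cells had a UMI. Mki67 was more narrowly held, with 19.3%, 3.01% and 79.3%.

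Within positive cells the antagonist library differed from the vehicle in single genes, while the 40 genes were 1.5-fold apart less often than all genes. The cells were chosen by these same genes, so the values are a description. Cdc20 was at 557 CPM against 272 CPM in the vehicle, 2.05 times as high, and at 2.01 times when the cells were chosen by the even-place genes, which do not include it. Knstrn was at 214 against 149 CPM, Ccnb2 at 294 against 210 CPM and Cenpa at 539 against 418 CPM. On the low side stood Nuf2 (28.5 against 46.7 CPM), Aurkb (95.2 against 151 CPM) and Ttk (22.4 against 34.2 CPM), the 3 genes at least 1.5-fold lower by CPM, with Cdc20 the 1 gene that far higher. Of all genes 22.2% were lower and 14.6% higher in these cells. Top2a was at 415 against 597 CPM and Kif11 at 103 against 151 CPM. The 40 genes summed to 1.03 times the vehicle. Nuf2 was at 0.618 times in cells chosen by the even-place genes, which do not include it. In cells chosen by the odd-place genes, which include neither, Kif11 was at 0.664 and Ccnb2 at 1.35 times. A Cdc20 UMI was found in 84.5% of positive cells with the antagonist and in 61.2% in the vehicle, and in 1.14% and 1.87% of cells rich in enterocyte genes.

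The other day-4 libraries had 0 of the 40 genes at least 1.5-fold from the vehicle within positive cells, against 9.88% of all genes lower and 6.10% higher with retinoic acid and 2.89% and 5.24% in vitamin A-free medium. With retinoic acid each of the 40 genes was lower in positive cells, from 0.669 times (Kif23) to 0.956 times (Kif11), and Cdc20 was at 0.891 times. In vitamin A-free medium the range was 0.936 (Bub1) to 1.15 times (Ndc80). At day 1, Ect2 stood out at 107 and 117 CPM in positive cells against 77.1 CPM in the day-4 vehicle, while Nusap1 was at 77.9 and 113 against 167 CPM and Ccnb2 at 129 in both against 210 CPM. Over all cells Ect2 was the gene that fell most, and Nusap1 and Ccnb2 were among the 3 that fell least.

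**Figure D5:**
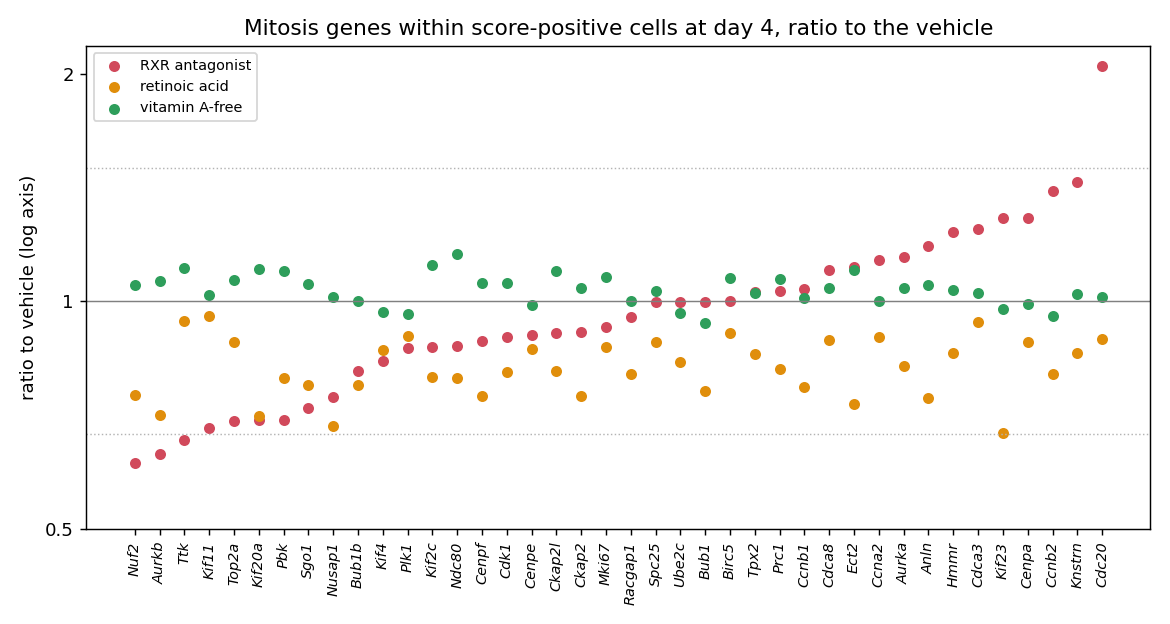
Ratio to the day-4 vehicle (log axis) of each mitosis gene within score-positive cells for the 3 other day-4 libraries, genes ordered by the antagonist ratio; dotted lines mark 1.5-fold. The antagonist points run from 0.610 (Nuf2) to 2.05 (Cdc20), while those of retinoic acid lie below 1 and those of vitamin A-free medium near 1.

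The share of positive cells that also passed the threshold of a DNA replication score was lowest in the antagonist library. By a score built in the same way from the 40 replication genes, 473 of 743 positive cells in the vehicle were also replication-positive (63.7%, 95% exact binomial interval 60.1 to 67.1%), against 84 of 258 with the antagonist (32.6%, 26.9 to 38.6%) and 279 of 364 with retinoic acid (76.6%, 72.0 to 80.9%). It was 65.9% in vitamin A-free medium and 93.0% and 87.1% at day 1. Over all cells, replication-positive cells made up 19.8% in the vehicle, 3.92% with the antagonist, 9.45% with retinoic acid, 28.2% in vitamin A-free medium, and 85.2% and 69.1% at day 1. These intervals cover counting error within 1 library and give no test of the treatments.

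Markers of other cell types moved with these groups. For the counts below, 19.3% of all genes were 1.5-fold lower and 14.8% higher with the antagonist. The shares were 28.2% and 5.60% with retinoic acid, and 1.63% and 3.16% in vitamin A-free medium. The crypt stem list (9 genes, led by Slc12a2) summed to 774 CPM in the vehicle, 133 with the antagonist, 207 with retinoic acid and 1430 in vitamin A-free medium, and 597 and 414 at day 1. Of its 8 genes above the floor, 7 were at least 1.5-fold lower with the antagonist, 8 lower with retinoic acid and 7 higher in vitamin A-free medium, and none was at 0 in any library. In positive cells its median share of UMIs was 0.147% in the vehicle, 0.0208% with the antagonist, 0.108% with retinoic acid and 0.188% in vitamin A-free medium, against 0.0102%, 0.00677%, 0% and 0.0214% in the other cells. The enterocyte list took a median of 0.156% of UMIs in positive cells and 5.25% in other cells of the vehicle, 0.355% and 13.3% with retinoic acid, and 0.158% and 3.29% in vitamin A-free medium. Over whole libraries 11 of its 14 genes were higher with retinoic acid, 8 were lower in vitamin A-free medium (31165 against 48344 CPM summed) and 14 were lower with the antagonist. The regenerative list (10 genes, led by S100a6) took 0.450% in positive and 0.443% in other cells with the antagonist, and a median of 0% in both in the vehicle. It took 0.0935% and 0.0993% in positive cells at day 1. Over whole libraries it summed to 68.9 CPM in the vehicle, 7731 with the antagonist, 50.03 with retinoic acid, 168 in vitamin A-free medium, and 1379 and 1612 at day 1. Of its 10 genes 9 were higher with the antagonist and 7 in vitamin A-free medium, and 4 were higher and 1 lower with retinoic acid. The parts of these cell types in the mitosis results were not tested.

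Of the remaining marker lists over whole libraries, goblet genes (7, led by Agr2) summed to 1198 CPM in the vehicle and 4641 with the antagonist, with 926 to 2945 CPM in the other 4 libraries. Paneth genes (8, led by Defa24) ran from 312 CPM with the antagonist to 1951 CPM in vitamin A-free medium. Enteroendocrine genes (9, led by Cck) ran from 82.3 CPM with retinoic acid to 3762 CPM in the second day-1 library, which held 1078 CPM in the first. Tuft genes (5, led by Avil) stayed between 0.528 and 12.8 CPM. Positive cells were also deeper before thinning than the others in every library. Median UMIs were 13370 against 10749 in the vehicle, 14356 against 13640 with the antagonist and 12642.5 against 11840 with retinoic acid. They were 12754 against 9615 in vitamin A-free medium, and 12990.5 against 9195 and 13855 against 10244.5 at day 1.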

How the data were processed

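Single-cell RNA was measured in 6 libraries of mouse organoids on a droplet platform with 3-prime chemistry, after sorting to discard debris and dead cells, per the labels' protocols. The deposited values are UMI counts per gene and cell, made by the authors with no normalization. bcl2fastq 2.17, Cell Ranger 3.1.0 and the build GRCm38 are named, with no role or order, per the submitters' processing notes. Groups came from the labels.

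The lowest number of genes in a barcode was 1001 and the highest mitochondrial share 9.996%. Scrublet's own threshold marked 0 to 1.11% of barcodes, which is too few, so barcodes with the top Scrublet scores were dropped instead (0.8% for each 1000 barcodes of the library, 2.86% to 4.47% per library). UMIs were summed per library and scaled to CPM. Ratios used a pseudocount of 1 CPM and a floor of 1 CPM in the mean of the libraries. Intervals are 95% exact Poisson or binomial ones. They cover counting error only. Day 4 against day 1 was tested with edgeR 4.0.16 (R 4.3.3; filterByExpr, TMM), checked on simulated data, with DESeq2 1.42.0 as an alternative and an adjusted p threshold of 0.05. Each SE beside an edgeR log2 fold change was derived from the test. It is the absolute log2 fold change divided by the square root of the F statistic. Scores came from scanpy 1.11.5 (50 control genes per bin, 25 bins, a pool of 12437 genes), and exact intervals from scipy 1.17.1. Gene positions are from GENCODE vM21, of which 98.6% of the file's gene IDs matched with their version, and promoters from RefSeq.

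The members and lists (other mitosis, DNA replication, cell cycle brakes, 12 marker lists) were chosen with earlier results of these data known. Values in every library are given for 12 core genes and for the 3 highest and 3 lowest ratios in each comparison. Of the other lists the 2 highest and 2 lowest and Cdkn1a are named, and of marker lists the most abundant gene. A value that this rule would name among the DNA replication genes is not reported here. Other genes named in the text (those not counted, those standing apart in positive cells, neighbours) were chosen after their values were seen. Alternatives varied scaling, pseudocount, floor, filter, doublets, thinning, score threshold and the choice of cells.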

Additional observations from a re-analysis of the deposited data

How the results depend on the processing

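No paired analysis was possible because the groups share no more than 1 replicate number. Of the alternative values of the main results, 112 stayed the same by the rule used and 18 moved. Counts of mitosis genes 1.5-fold apart ranged from 33 to 35 lower with the antagonist, and were 39 lower with retinoic acid and 0 in vitamin A-free medium under every setting run. Over these settings the share of all genes lower ran from 8.53% to 19.3% with the antagonist and from 10.7% to 28.9% with retinoic acid. In vitamin A-free medium 0.686% to 2.89% of all genes were lower and 1.02% to 3.36% higher. With a pseudocount of 5 CPM the median log2 ratio was -0.89 with the antagonist and -1.17 with retinoic acid. With TMM factors the median was -1.03 with retinoic acid and 0.28 in vitamin A-free medium, and with DESeq2's size factors -0.98 and 0.26. For day 4 against day 1, the edgeR calls were 40 lower with every setting run but no filter (39). Of all genes, edgeR called 1839 of 28578 lower with no filter, and 3917 of 17592 without TMM factors. On the CPM ratio scale the median of the 40 genes was -1.51, and -1.53 to -1.41 when either day-1 library was left out (a ratio with no test). With at least 10 mitosis UMIs as the criterion, positive cells were 21.2% in the vehicle, 9.78% with the antagonist, 9.32% with retinoic acid and 26.3% in vitamin A-free medium. With a score above 0.1 they were 14.8%, 6.57%, 6.11% and 18.7%, and 68.8% in the first day-1 library. The level ratio in positive cells moved to 0.959 for the antagonist with odd-place cells and to 0.893 for the first day-1 library with even-place cells, the latter chosen after seeing the data. For the antagonist this ratio lay on both sides of 1, at 1.03 for the summed 40 genes and 1.06 with even-place cells. Why these moved was not tested, beyond the construction of each setting. With 1 library per treatment, the day-4 differences carry counting error only. Among values of single genes, 346 stayed the same and 254 moved.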
